A study of Mus musculus with 10 samples.

Results

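The genes described here build the mitochondrial respiratory chain and its ATP synthase. They are the rows of the deposited count table whose mouse symbol begins with Nduf, Uqcr, Atp5 or Cox4 to Cox8, the genes Sdha to Sdhd, and the 13 protein genes of the mitochondrial genome, with pseudogenes left out. Of 53465 rows, 119 matched and 106 were kept, because 12 of the other 13 are annotated as pseudogenes and the last, Ndufb1-ps, as a non-coding RNA. The 106 members divide into 93 nuclear genes and 13 mitochondrial ones. The nuclear genes comprise 36 of complex I, 4 of complex II, 8 of complex III, 19 of complex IV, 16 of complex V and 10 accessory genes, mostly the Ndufaf assembly factors. The choice is by name alone, so a few subunits with other symbols, such as Cyc1, stand with the related genes further on.

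The respiratory chain passes electrons from NADH and succinate to oxygen through complexes I to IV and pumps protons across the inner mitochondrial membrane, and ATP synthase (complex V) uses the proton gradient to make ATP. Complex II is encoded wholly in the nucleus, while each of the other complexes mixes nuclear subunits with subunits made inside the mitochondrion, so their assembly needs products of both genomes. Erythroblasts depend on mitochondria for heme and energy and remove them before they become red cells.

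Spleen erythroblasts of C57BL/6 mice were profiled by RNA sequencing 11 days after 5-FU, a drug that kills dividing blood precursors. The 4 genotypes were wild type (WT, n = 2, replicates 1 and 3), mice that lack the cluster of miR-144 and miR-451 (miR-144/451-null, n = 2, replicates 1 and 3), mice without Nrf2, the transcription factor of the oxidative stress response (Nrf2-null, n = 3), and mice without both (double-null, n = 3). The same drug, day and tissue are shared by all groups. The labels describe neither the alleles nor the animals' ages, and do not say which mouse gave each library, so the p-values measure only the spread between these libraries.

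Each library held between 13087827 and 15131036 counts, of which 7.08% to 12.2% were globin. The 12 erythroblast markers were detected throughout and summed to between 94071 and 163343 CPM (counts scaled to the library total, here with TMM factors between libraries). Mir144 had 9 to 17 counts in each of the 5 libraries with the cluster and 0 in each of the 5 without it, where a count of 0 allows up to 3. Mir451a had 0 counts in all 10 libraries, so its loss cannot be checked here. Nfe2l2, the gene of Nrf2, summed to 46.0 to 55.6 CPM in the Nrf2-null libraries against 58.1 and 63.5 in WT. The labels do not say which exons the null allele lacks, so this total over the gene checks nothing. Xist and Y-linked counts mark 3 libraries as female (both of WT, and double-null replicate 3) and the other 7 as male. The comparisons of miR-144/451-null or Nrf2-null with WT are therefore also comparisons of male with female libraries, and genotype and sex cannot be told apart in them. Only double-null holds both sexes, so a term for sex in the fit is set by its replicate 3 against replicates 1 and 2.

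The cluster encodes the microRNAs that the null genotypes lack, and their mature sequences are shown because 3′ UTRs were searched for the match to their seeds. Shorter matches and sites elsewhere in a transcript were not searched. RefSeq (GRCm38.p6) places miR-144-3p at chr11:78073047-78073066 and miR-451a at chr11:78073186-78073207, both on the plus strand. Capitals mark the seed, bases 2 to 8.
miR-144-3p: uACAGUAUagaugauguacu
miR-451a: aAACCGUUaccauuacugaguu
The seed match of miR-144-3p (ATACTGT) occurred in the longest annotated 3′ UTR of 2 of 93 nuclear members, Atp5a1 and Cox7b2, and that of miR-451a (AACGGTT) in 0 of 93. Among the 5390 genes with a 3′ UTR as long as the middle range of the members' (141 to 607 bases), 2.49% held the first match and 0.557% the second. The members' 3′ UTRs are short, with a median of 272 bases against 1087 for all genes. A match is only a run of letters.

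Promoter windows are shown for 5 members called higher below and for Uqcrc1 and Ndufs3, which were not, since the factors that are known to drive respiratory genes have well described motifs. Nrf1 here is nuclear respiratory factor 1, a regulator of respiratory genes that is a different gene from Nrf2. Each window is 30 bases of GRCm38.p6 written along the gene, with the motif in capitals: GCGC, any base and TGCGC for Nrf1, or CCGGAAG of the ETS family to which Gabpa belongs, on either strand.
Atp5g2, Nrf1 motif, chr15:102671070-102671099, minus strand: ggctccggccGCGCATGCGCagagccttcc
Ndufa6, Nrf1 motif, chr15:82354249-82354278, minus strand: ccgtggcaccGCGCGTGCGCacgctgaagg
Sdha, Nrf1 motif, chr13:74350231-74350260, minus strand: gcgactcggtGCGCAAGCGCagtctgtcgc
Uqcrc1, Nrf1 motif, chr9:108936668-108936697, plus strand: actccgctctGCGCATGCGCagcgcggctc
Sdhb, ETS motif, chr4:140961265-140961294, plus strand: ggctcggagaaaCCGGAAGcggccttccac
Cox6b1, ETS motif, chr7:30626125-30626154, minus strand: ctcctctcgcagCTTCCGGccagtcggaat
Ndufs3, ETS motif, chr2:90904731-90904760, minus strand: ccccgcgtccgcCCGGAAGaagagtcactg
Of the 76 nuclear members with a promoter in the RefSeq table (250 bases before to 50 after the start), 19 (25%) held the Nrf1 motif, against 5.19% of all 27025 genes and 11.5% of the genes tested here. The ETS motif was in 18 (23.7%), against 9.93% and 20.5%, and the Yy1 motif AAGATGGC in 11 (14.5%), against 3.19% and 5.38%. The antioxidant response element TGACNNNGC, the site of Nrf2, was in 11 (14.5%), against 14% and 17.1%. The erythroid GATA motif AGATAAG was in 0 of 76, against 3.5% of all genes and 2.43% of those tested. The Esrra motif TCAAGGTCA was in 2 (2.63%), against 0.466% and 0.348%. A further background was the 3147 tested genes whose promoters lie in the middle range of the members' G and C content (55% to 62.3%). There the shares were 12.5% for Nrf1, 23.3% for ETS, which is close to the members' 23.7%, and 6.74% for Yy1. They were 17.7% for the antioxidant element, 2.54% for GATA and 0.381% for Esrra. These are counts of letters in a window and name no bound factor.

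With Nrf2 present, a few members, spread over all 5 complexes, were higher in miR-144/451-null than in WT. A gene was called at an adjusted p under 0.05 (edgeR quasi-likelihood test, Benjamini-Hochberg over the 14110 genes tested), and 97 members could be tested. In miR-144/451-null against WT, 7 of the 97 rose and 0 fell, where 2.4% of all genes tested rose and 2.23% fell (4.63% in all). They included Ndufa6 of complex I, Sdhc of complex II, Uqcrc2 of complex III, Cox5a of complex IV, Atp5g2 of ATP synthase and the mitochondrial gene mt-Nd4. The median log2 fold change was 0.21 over the 87 nuclear members tested and 0.57 over the 10 mitochondrial ones, against 0.02 over all genes. Both miR-144/451-null libraries lay above both WT ones for 50 of the 97 and below them for 4, where 24.2% of all genes lay above and 22.8% below. The count of 7 was 0 without WT replicate 3 or miR-144/451-null replicate 1, 1 without WT replicate 1 and 2 without miR-144/451-null replicate 3. It was 4 when Nrf2-null replicate 1, Nrf2-null replicate 2 or double-null replicate 1 was left out. With a term for sex, which is set within double-null alone, 0 of the 97 were called (1 gene of all 14110). The members' median log2 fold change was then 0.47. Among the 12 erythroblast markers 2 fell, and the B cell markers summed to 1285 and 1637 CPM in WT against 722 and 979.8 in miR-144/451-null, with 0 of 11 called. Their part in the result was not tested.

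**Figure D1:**
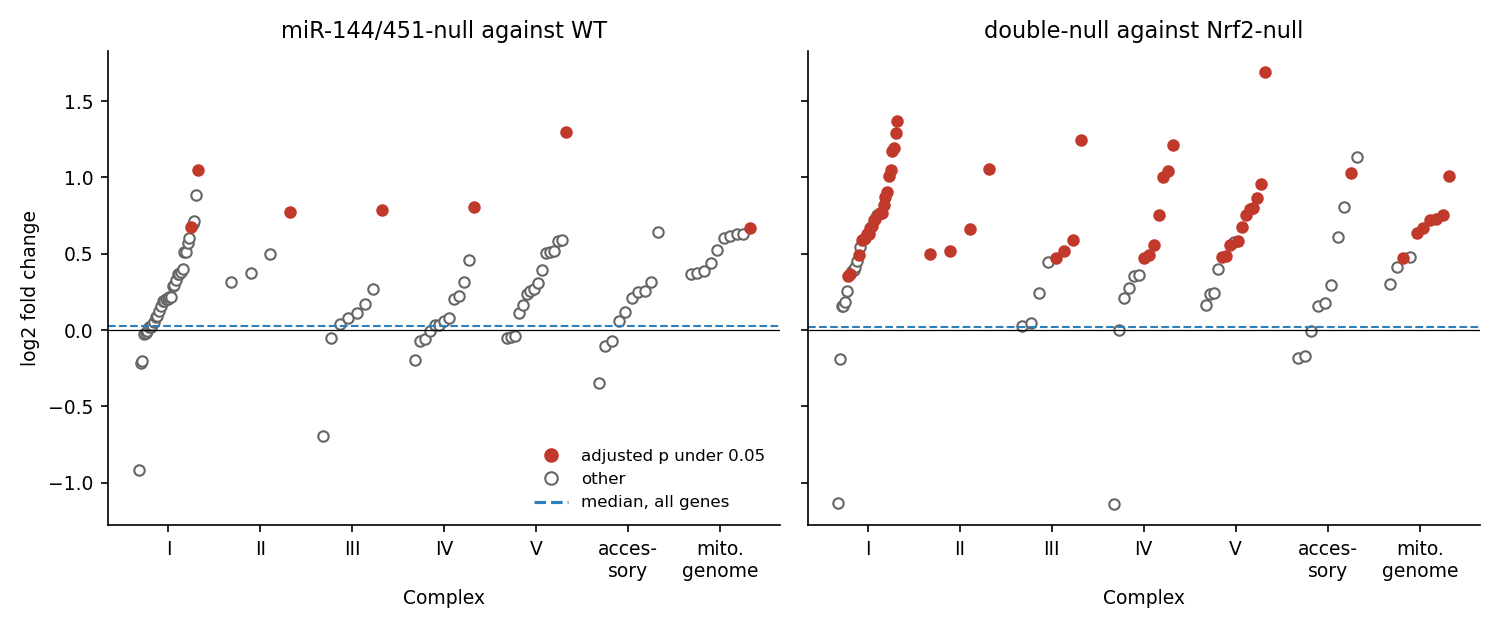
Log2 fold change of the 97 tested members by complex (horizontal axis, members in rising order within each), for the loss of the cluster with Nrf2 present (left) and absent (right). Filled points passed the threshold, 7 on the left and 58 on the right, and the dashed line is the median of all genes at 0.02.

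With Nrf2 absent, most of the chain was higher in double-null than in Nrf2-null. In double-null against Nrf2-null, 58 of 97 rose and 0 fell, where 14.4% of all genes tested rose and 12.9% fell (27.3% in all). The called members were 51 of 87 nuclear and 7 of 10 mitochondrial genes, and the medians were 0.56 and 0.65 against 0.02 over all genes. The 3 double-null libraries all lay above the 3 Nrf2-null ones for 70 of the 97 members and below them for 0, where 23.4% of all genes lay above and 21.8% below. In bulk RNA, fewer cells of a type and less RNA per cell cannot be told apart. Markers of other cells moved with this comparison. The 11 B cell markers summed to between 977 and 1119 CPM in the Nrf2-null libraries and between 357 and 787 in the double-null ones, with 10 of 11 lower and 0 at 0 in all libraries. The 10 macrophage markers summed to 317 to 1066 against 82.1 to 361 CPM (0 of 10 called), the 8 neutrophil markers to 172 to 1138 against 1080 to 1186 (0 of 8 called), and among the 12 erythroblast markers 5 fell. Their part in the result was not tested. Of the 9 late erythroid markers 1 rose and 2 fell, and of the 7 early ones 0 were called either way. Among male libraries only, 45 members were called, and with a term for sex 42.

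**Figure D2:**
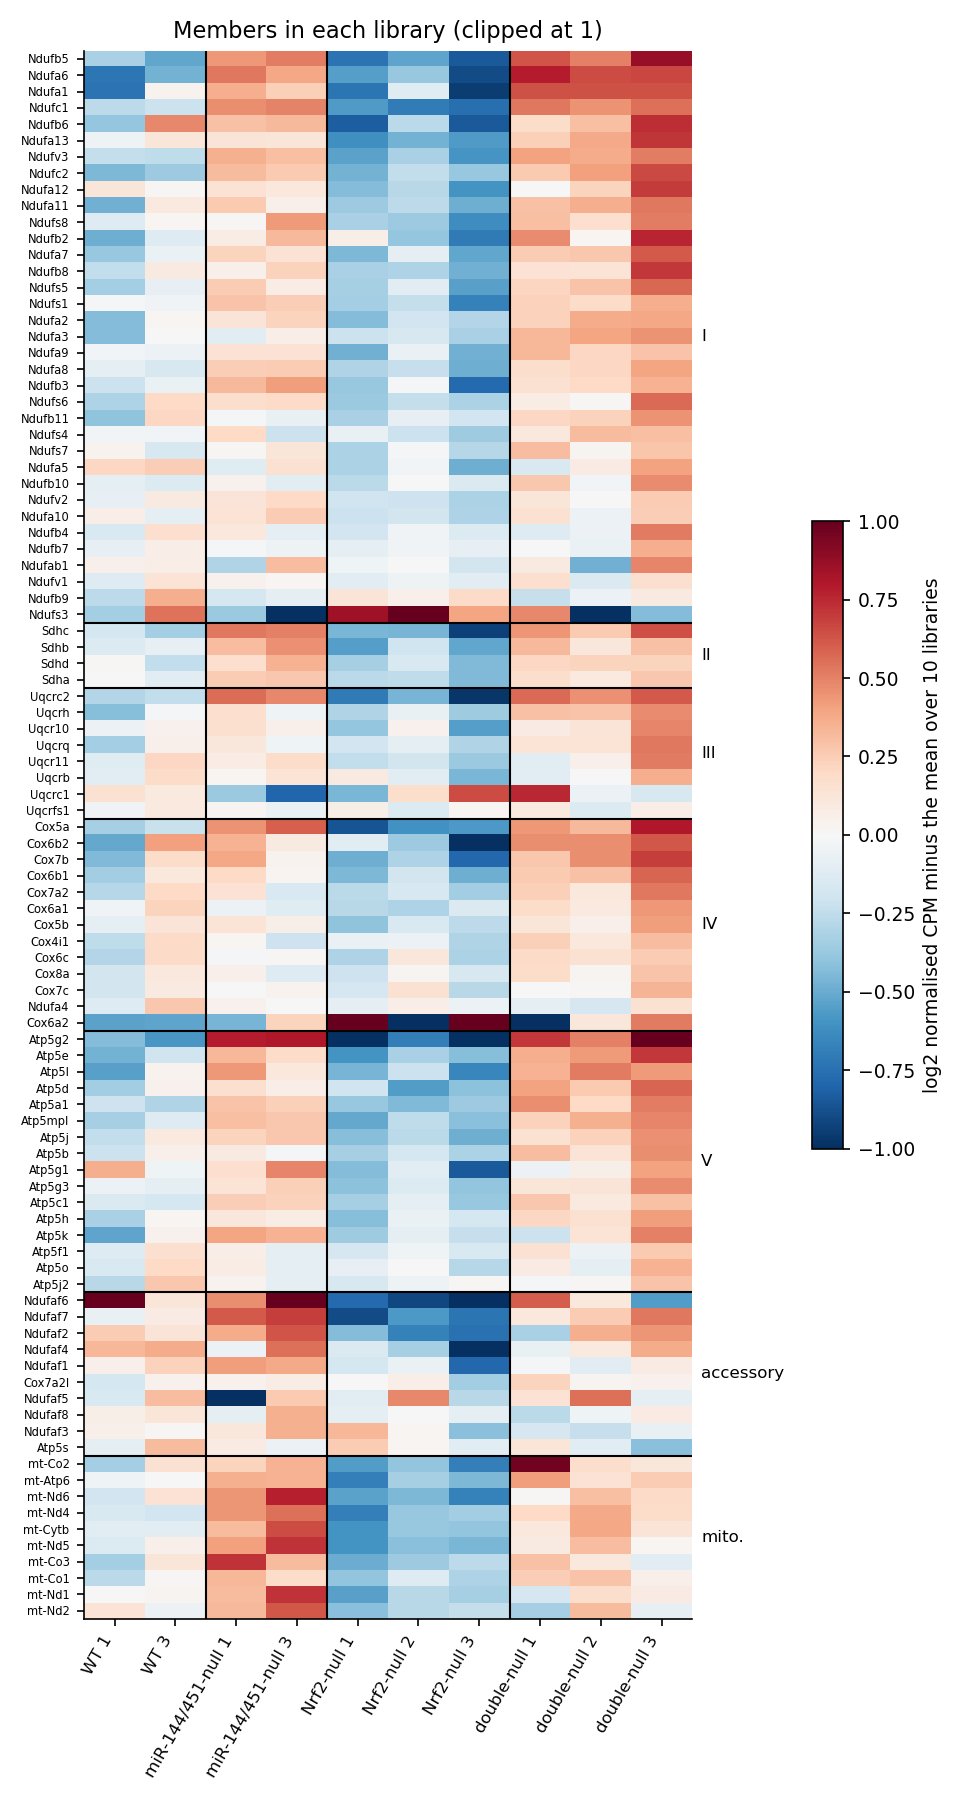
Each row is a tested member (a member not reported here is left out) and each column a library, coloured by log2 normalised CPM minus the member's mean over the 10 libraries (clipped at 1), with members grouped by complex. The miR-144/451-null and double-null columns are mostly above the mean and the Nrf2-null columns mostly below it, while Ndufs3, Uqcrc1 and Cox6a2 stand out of their blocks.

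The 2 comparisons of cluster loss share no library, so their values can be set side by side. All 7 members called with Nrf2 present were also called with it absent, and 51 more were called only with it absent. The log2 fold change was above 0 in both for 76 of 97 members, below 0 in both for 4, and larger with Nrf2 absent for 88, with a median difference of 0.30. That median was 0.18 without WT replicate 3. With a term for sex it was 0.01, with medians of 0.47 and 0.51 in the 2 comparisons, and both WT libraries are female. That term rests on double-null replicate 3, the only female library outside WT, so it cannot decide how much of the difference goes with sex. The difference between the 2 comparisons was tested as an interaction and passed for 0 of 97 members, where 0.0638% of all genes passed (0.0283% higher and 0.0354% lower). At an unadjusted p under 0.05 there were 5 members and 629 of all 14110 genes, and DESeq2 called 0 members. The smallest adjusted p was that of Ndufa13 (0.728, difference of 0.92 ± 0.23 on the log2 scale, SE). Ndufa12, Cox7b, Cox6a1 and Atp5d followed, with differences of 0.55 to 0.71, each at an adjusted p of 0.999. No single member was shown to respond more with Nrf2 absent. Simulated 2-fold changes were recovered in 21% of genes by the comparison with WT and in 36% by that with Nrf2-null, so the comparisons differ in what they can detect. The simulation changed 200 genes drawn from all 14110, fewer than were called in the data, so these are not rates for the members.

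Complex I, the entry point for electrons from NADH, had 24 of its 36 nuclear members higher in double-null against Nrf2-null and 2 higher in miR-144/451-null against WT. Ndufa6, a small subunit on the matrix arm, was at 27.9 and 33.2 CPM in WT, 66.3 and 60.3 in miR-144/451-null, 31.5, 35.5 and 24.8 in Nrf2-null, and 79.2, 72.4 and 73.1 in double-null. Every library without the cluster was above every library with it. Its log2 fold change was 1.05 ± 0.18 (SE, adjusted p = 0.00994, edgeR) with Nrf2 present and 1.29 ± 0.15 (adjusted p = 0.000187) with it absent. Leaving out WT replicate 1, WT replicate 3 or miR-144/451-null replicate 1 ended the call in the comparison with WT, with an adjusted p of 0.066 to 0.0902. The call with Nrf2 absent held in each of the 10 fits that left out a library.

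Of the other complex I members named here, none passed the threshold in the comparison with WT. Ndufb5, a membrane-arm subunit, was at 5.18, 6.01 and 4.81 CPM in Nrf2-null and 13.4, 12.2 and 15.8 in double-null (1.37 ± 0.19, adjusted p = 0.000634). Its locus overlaps Mrpl47, and without a known strand setting reads from where the loci overlap cannot be told apart. Of the 31-base words of Ndufb5, 11.9% occur in other genes. Ndufa13, also known as a cell death regulator, was at 19.3, 21.3 and 20.02 CPM against 34.9, 38.5 and 48.6 (1.01 ± 0.15, adjusted p = 0.000739). Other genes share 33.2% of the 31-base words of Ndufa13 and 20.7% of those of Ndufa12. Ndufa12, an accessory subunit of the matrix arm, rose by 0.77 ± 0.20 (adjusted p = 0.0145), and the adjusted p was 0.0513 without Nrf2-null replicate 3. For each of these 3 genes the double-null libraries were all above the Nrf2-null ones.

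The X-linked members, of interest because the sex of the libraries differs, are Ndufa1 and Ndufb11 of complex I and Cox7b of complex IV, and all 3 rose in double-null against Nrf2-null. Ndufa1, needed for assembly of the membrane arm, was at 11.6, 17.7 and 9.94 CPM in Nrf2-null and 29.9, 29.9 and 29.9 in double-null (1.19 ± 0.24, adjusted p = 0.00428). Ndufb11, a small membrane-arm subunit, went from 45.5 ± 3.80 (SD, n = 3) to 64.0 ± 6.12 CPM (0.49 ± 0.16, SE, adjusted p = 0.0387). Cox7b was at 41.7, 47.4 and 34.0 against 70.8, 80.8 and 94.8 CPM (1.00 ± 0.19, adjusted p = 0.00365). The female double-null library, replicate 3, was the highest for Ndufb11 and Cox7b and level with the 2 male ones for Ndufa1. Among male libraries only, the adjusted p values were 0.0104, 0.0455 and 0.0103 in that order. The Ndufb11 locus overlaps Rbm10, and its call ended without any single library of the 2 groups (Nrf2-null or double-null replicates 1, 2 and 3), with an adjusted p of 0.0559 to 0.128.

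A split of complex I by structure, made after the values were seen, gave 4 of 7 nuclear core subunits and 20 of 29 supernumerary ones higher in double-null against Nrf2-null. The core subunit Ndufs3, chosen after its values were seen, had the opposite sign. It was at 10.4, 14.5 and 7.57 CPM in Nrf2-null and 8.02, 2.51 and 4.25 in double-null, a log2 difference of -1.13 ± 0.44 (adjusted p = 0.0796). Ndufs3 also had 4.55 and 8.38 CPM in WT and 4.45 and 2.40 in miR-144/451-null, so its groups were wide and low. Without double-null replicate 1 it was called lower (adjusted p = 0.0216). DESeq2 also called it lower, at 0.0378. A share of 25.4% of its 31-base words occurs in other genes.

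All 4 genes of complex II, succinate dehydrogenase, rose in double-null against Nrf2-null. Sdha, the flavoprotein that oxidises succinate, was at 138, 139.8 and 123 CPM in Nrf2-null and 188, 179 and 201 in double-null (0.50 ± 0.11, adjusted p = 0.00696). Sdhb, the iron-sulfur subunit, was at 25.7, 32.8 and 26.4 CPM against 47.2, 40.8 and 46.2 (0.66 ± 0.13, adjusted p = 0.00458). Both sets of libraries lay apart for these 2 genes and for the 2 membrane anchors. Sdhc was at 27.7, 27.6 and 19.95 CPM against 51.8, 45.6 and 59.5 (1.06 ± 0.16, adjusted p = 0.000828), and Sdhd rose by 0.52 ± 0.12 (adjusted p = 0.0107). The calls of all 4 held in each of 10 fits that left out a library. With Nrf2 present Sdhc was at 33.7 and 30.1 CPM in WT and 55.0 and 54.0 in miR-144/451-null (0.77 ± 0.19, adjusted p = 0.0445). That call ended without WT replicate 1 or 3, miR-144/451-null replicate 1 or 3, Nrf2-null replicate 1 or 2, or double-null replicate 1 (adjusted p of 0.0592 to 0.273). The other 3 had log2 differences of 0.31 to 0.50 in the comparison with WT and adjusted p values of 0.118 to 0.236, with both miR-144/451-null libraries above both WT libraries for each.

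Complex III passes electrons from ubiquinol to cytochrome c, and 4 of its 8 nuclear members rose in double-null against Nrf2-null and 1 in miR-144/451-null against WT. Uqcrc2, a core protein facing the matrix, was at 71.9 and 74.0 CPM in WT, 129 and 123 in miR-144/451-null, 53.8, 63.8 and 44.7 in Nrf2-null and 130.0, 120.4 and 135 in double-null. Every library without the cluster exceeded every library with it. Of the 31-base words of Uqcrc2, 18.5% occur in other genes. The log2 fold changes were 0.79 ± 0.16 (adjusted p = 0.0229) and 1.25 ± 0.14 (adjusted p = 0.000152). The first call ended without WT replicate 1 or 3 or without miR-144/451-null replicate 1 or 3 (adjusted p of 0.0632 to 0.145). The second held in each of the 10 fits that left out a library.

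The partner core protein Uqcrc1 and the Rieske iron-sulfur protein Uqcrfs1, chosen after their values were seen, did not pass. Uqcrc1 was at 66.5 and 64.2 CPM in WT, 46.4 and 34.6 in miR-144/451-null, 43.7, 67.7 and 94.1 in Nrf2-null and 101, 57.6 and 53.6 in double-null. Its Nrf2-null and double-null libraries overlapped over nearly the whole range, and the log2 difference between them was 0.05 ± 0.30 (adjusted p = 0.925). Both miR-144/451-null libraries were below both WT ones (-0.69 ± 0.38, adjusted p = 0.381). Uqcrfs1 lay between 76.9 and 90.6 CPM in all 10 libraries. Of the smaller subunits Uqcrh (0.59 ± 0.14, adjusted p = 0.0102), Uqcr10 (0.52 ± 0.17, adjusted p = 0.042) and Uqcrq (0.47 ± 0.15, adjusted p = 0.0377) rose in double-null against Nrf2-null, and Uqcr11 and Uqcrb were not called. The call of Uqcr10 ended in 7 of the 10 fits that left out a library (WT replicates 1 and 3, miR-144/451-null replicate 3, Nrf2-null replicates 1 and 3, double-null replicates 2 and 3), with an adjusted p of 0.0512 to 0.139. The call of Uqcrq ended without Nrf2-null replicate 1, 2 or 3 or double-null replicate 3 (0.0586 to 0.111).

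Complex IV, cytochrome c oxidase, had 7 of its 13 tested nuclear members higher in double-null against Nrf2-null and 1 in miR-144/451-null against WT. Cox5a, a subunit on the matrix side, was at 15.1 and 16.3 CPM in WT, 25.9 and 28.8 in miR-144/451-null, 10.4, 12.5 and 12.8 in Nrf2-null and 25.7, 23.8 and 33.0 in double-null. All 5 libraries without the cluster were above all 5 with it. The log2 fold changes were 0.80 ± 0.20 (adjusted p = 0.0463) and 1.21 ± 0.17 (adjusted p = 0.000537). The first call was the weakest of the 7, and ended in 8 of the 10 fits that left out a library (WT replicates 1 and 3, miR-144/451-null replicates 1 and 3, Nrf2-null replicates 1, 2 and 3, double-null replicate 1), with an adjusted p of 0.0506 to 0.226. Ndufa4, which copurifies with complex IV, lay between 58.0 and 78.5 CPM in all 10 libraries, and double-null differed from Nrf2-null by 0.00 ± 0.14 on the log2 scale (adjusted p = 0.996).

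Several complex IV subunits exist as paralogs with tissue preferences, and erythroblasts used mostly the widely expressed forms. Compared per length in FPKM (fragment counts scaled to gene length and library total, as deposited), Cox4i1, Cox6a1, Cox7a2, Cox8a and Ndufa4 each supplied at least 98.4% of their set in every library. The alternatives Cox4i2, Cox6a2, Cox7a1, Cox8b and Ndufa4l2 were near 0, and Cox7b2 and Cox8c had 0 counts in every library, which allows up to 3 counts in each. The heart and muscle form Cox6a2 ranged from 0.297 to 2.60 CPM.

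Cox6b2, known as the testis form of a subunit that links the oxidase monomers, was an exception. It reached 51.7 and 82.4 FPKM in WT against 69.96 and 80.1 for Cox6b1, and made up 30.2% to 51.3% of the summed FPKM of the pair over the 10 libraries. No other gene shares 31-base words with it. In CPM it was at 67.9, 57.0 and 27.3 in Nrf2-null and 101, 101 and 112 in double-null (1.04 ± 0.32, adjusted p = 0.0378). Cox6b1 was at 41.2, 49.6 and 40.3 CPM against 67.4, 69.1 and 84.6 (0.75 ± 0.15, adjusted p = 0.00489), so both paralogs rose and their shares overlapped between genotypes. The Cox6b2 call ended in 7 of the 10 fits that left out a library (miR-144/451-null replicates 1 and 3, Nrf2-null replicates 2 and 3, double-null replicates 1, 2 and 3), with an adjusted p of 0.051 to 0.0762. Cox6a1, with the highest mean level of the nuclear members at 297 FPKM, was at 170, 166 and 187 CPM in Nrf2-null and 234, 221 and 278 in double-null (0.49 ± 0.13, adjusted p = 0.0172). It lost its call without Nrf2-null replicate 1 or 2 or double-null replicate 3 (0.0572 to 0.0641), and Cox7a2 (0.56 ± 0.16, adjusted p = 0.0259) without Nrf2-null replicate 1 or 3 or double-null replicate 3 (0.0742 to 0.0792).

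ATP synthase had 11 of its 16 nuclear members higher in double-null against Nrf2-null. A split by structure made after the values were seen showed all 5 subunits of the catalytic F1 head among them. The head's 2 large subunits were abundant: Atp5b averaged 234 FPKM and Atp5a1 194. Atp5b, which holds the catalytic site, was at 772, 862 and 782 CPM in Nrf2-null and 1207, 1072 and 1341 in double-null (0.58 ± 0.14, adjusted p = 0.0104). Atp5a1 was at 450.5, 432 and 456.5 CPM against 808, 675 and 836 (0.79 ± 0.13, adjusted p = 0.00119), and its locus overlaps Haus1 as that of Atp5d overlaps Cbarp. The Nrf2-null and double-null libraries were well apart for both. The small head subunits Atp5e (0.95 ± 0.14, adjusted p = 0.000759) and Atp5d (0.80 ± 0.15, adjusted p = 0.00259) rose by similar amounts, and Atp5c1 by 0.49 ± 0.12 (adjusted p = 0.0107). Of the 8 members outside the head and the c-ring, 4 rose.

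Atp5g2 had the greatest log2 fold change of the 97 members in both comparisons of cluster loss. It is one of 3 genes (Atp5g1, Atp5g2 and Atp5g3) whose products differ in their import sequence and yield the same mature subunit c, the ring that turns in the membrane. Atp5g2 was at 21.0 and 18.9 CPM in WT, 48.8 and 49.4 in miR-144/451-null, 14.2, 17.5 and 12.99 in Nrf2-null and 46.1, 40.2 and 57.6 in double-null. The 5 libraries without the cluster were all well above the 5 with it. The log2 fold changes were 1.30 ± 0.20 (adjusted p = 0.00758) and 1.69 ± 0.17 (adjusted p = 9.05e-05). The first call ended without WT replicate 3 or miR-144/451-null replicate 1, with an adjusted p of 0.0502 to 0.0801. The second held in each of the 10 fits that left out a library.

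The makeup of the c-ring transcripts differed with the cluster. Per length, Atp5g2 made up 22.3% and 21.6% of the summed FPKM of the 3 genes in WT and 20.5%, 20.8% and 19.4% in Nrf2-null. Without the cluster it made up 37.7% and 35.8% in miR-144/451-null and 37.0%, 33.5% and 36.3% in double-null. The 2 ranges did not meet. Atp5g3, the most abundant of the 3, went from 66.9% ± 2.18 (SD, n = 2) in WT and 70.7% ± 2.07 (n = 3) in Nrf2-null to 54.7% ± 0.355 (n = 2) and 56.9% ± 1.5 (n = 3), although its own CPM was higher in double-null than in Nrf2-null (0.56 ± 0.13, adjusted p = 0.00988). Atp5g1 supplied 6.97% to 12.3% in all libraries and was not called in either comparison. These shares describe the genes and carry no test. Other genes share 40.2% of the 31-base words of Atp5g2, so some of its reads could belong elsewhere.

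**Figure D3:**
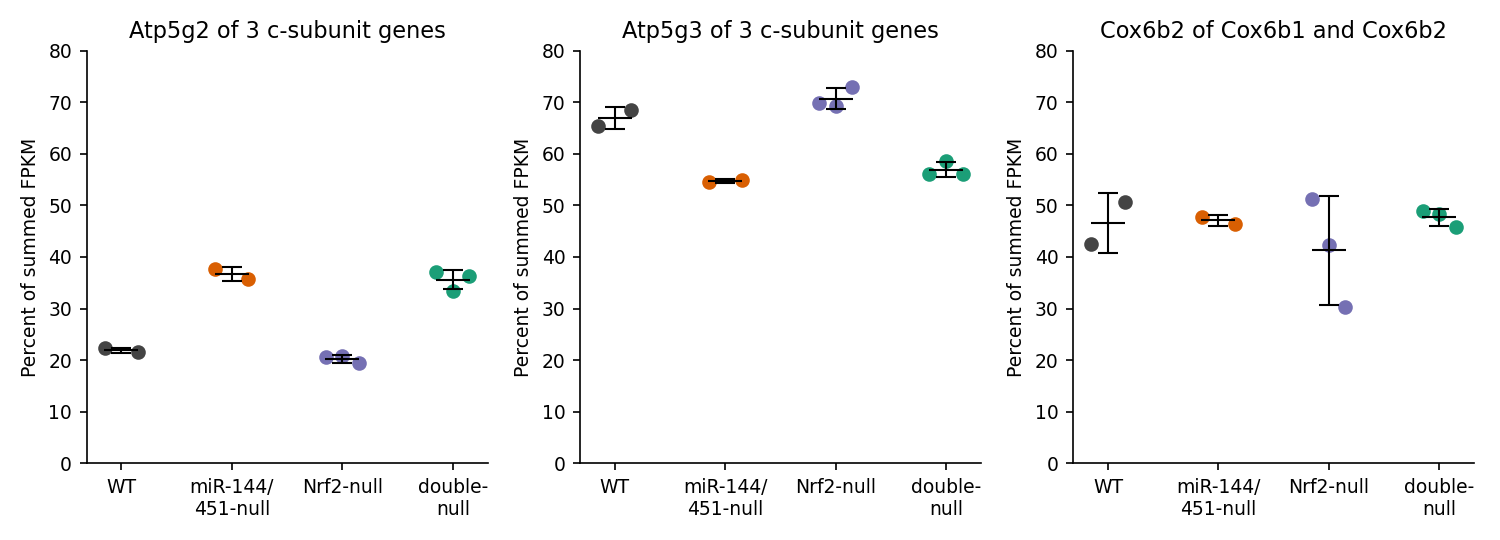
Share of summed FPKM in each library (points) with the genotype mean and SD (bars), for Atp5g2 and Atp5g3 among the 3 c-subunit genes and for Cox6b2 beside Cox6b1. Atp5g2 lay at 19.4% to 22.3% in the 5 libraries with the cluster and 33.5% to 37.7% in the 5 without it, while the Cox6b2 shares overlapped.

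Among the 10 accessory genes 1 rose in double-null against Nrf2-null, near the 14.4% of all genes that did, and 0 in miR-144/451-null against WT. The one was Ndufaf7, a methyltransferase needed for assembly of complex I, at 5.24, 6.53 and 5.88 CPM in Nrf2-null and 10.5, 11.6 and 14.03 in double-null (1.03 ± 0.19, adjusted p = 0.00278). Its libraries did not overlap between these groups. Over the 10 genes the median log2 fold change was 0.24, against 0.58 over the 77 tested nuclear subunits and 0.02 over all genes, a difference that was not tested. Ndufaf1 (0.29 ± 0.21), Cox7a2l (0.18 ± 0.13) and Atp5s (-0.18 ± 0.20) were not called, and apart from Cox7a2l the group is of low abundance.

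The mitochondrial genome was the greater part of the signal but was unevenly counted. Its 13 genes together took 0.777% to 1.62% of all counts, and mt-Co1 alone 62.0% to 72.8% of these. Per length, mt-Co1 averaged 4950 FPKM, mt-Cytb 982, mt-Nd1 670.5, mt-Nd5 421, mt-Nd2 353, mt-Nd4 326 and mt-Nd6 138, but mt-Co2, mt-Co3 and mt-Atp6 only 26.6, 11.8 and 9.23. mt-Nd3, mt-Nd4l and mt-Atp8 averaged under 1 FPKM and were not tested. For mt-Co2, mt-Co3, mt-Atp6, mt-Nd4l and mt-Nd3, 98.1% to 100% of the 31-base words also occur in other genes, mainly nuclear copies of mitochondrial DNA on chromosome 1. The part of this overlap in their low counts was not tested. Of the highly counted genes, mt-Co1 shares 63.9% of its 31-base words with other genes and mt-Nd4 62.8%. mt-Atp8 averaged 0.21 FPKM with 7.47% shared, but only words in annotated transcripts were counted, and its locus overlaps mt-Atp6. The loci of mt-Nd6 and mt-Nd5 overlap on opposite strands, and reads from the overlap cannot be told apart without the strand setting. Of the 31-base words of mt-Nd6, 7.36% occur in other genes.

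**Figure D4:**
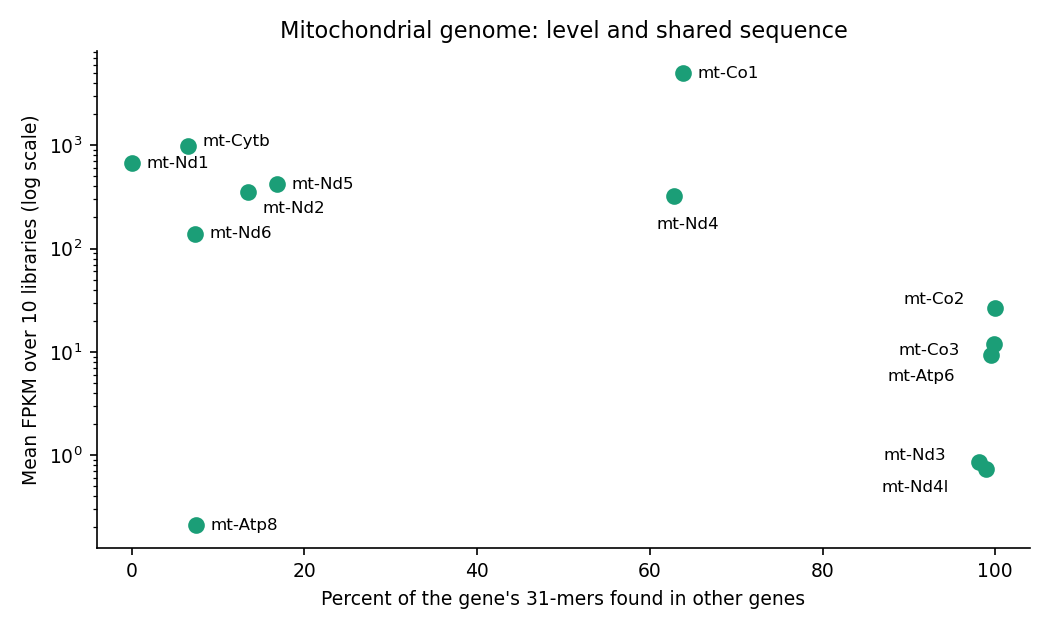
Mean FPKM over the 10 libraries (log axis) of each mitochondrial protein gene against the percent of its 31-base words found in other annotated genes. The 5 genes with 98.1% or more shared all lie at or below 26.6 FPKM, and mt-Atp8 is low with 7.47% shared.

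With that limit, 7 of the 10 tested mitochondrial genes rose in double-null against Nrf2-null: mt-Nd4, mt-Nd5, mt-Nd6, mt-Cytb, mt-Co1, mt-Co2 and mt-Atp6. mt-Cytb, the only mitochondrial subunit of complex III, was at 706, 822 and 812 CPM in Nrf2-null and 1150, 1400 and 1169 in double-null (0.67 ± 0.15, adjusted p = 0.00666). mt-Co1, the catalytic core of complex IV, was at 5699, 6851 and 6038 against 8868, 9132 and 7774 (0.47 ± 0.15, adjusted p = 0.0429). Neither gene's libraries overlapped between the groups. The call of mt-Co1 ended without miR-144/451-null replicate 1, Nrf2-null replicate 1, 2 or 3, or double-null replicate 1 or 2 (0.0525 to 0.145), and that of mt-Atp6 (0.76 ± 0.21, adjusted p = 0.023) without Nrf2-null replicate 1 or 3 or double-null replicate 1 (0.0524 to 0.0916). mt-Nd4, a proton-pumping subunit of complex I, was at 385 and 374 CPM in WT, 579.8 and 626 in miR-144/451-null, 266, 329.5 and 336 in Nrf2-null and 491, 555 and 486 in double-null. It rose by 0.67 ± 0.16 (adjusted p = 0.0401) with Nrf2 present and by 0.72 ± 0.13 (adjusted p = 0.00265) with it absent. The first call ended in 8 of the 10 fits that left out a library (WT replicates 1 and 3, miR-144/451-null replicates 1 and 3, Nrf2-null replicates 1 and 2, double-null replicates 1 and 3), with an adjusted p of 0.0525 to 0.196.

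The other mitochondrial genes did not pass. mt-Nd1 (0.42 ± 0.15, adjusted p = 0.0619), mt-Nd2 (0.30 ± 0.17, adjusted p = 0.207) and mt-Co3 (0.48 ± 0.22, adjusted p = 0.123) were not called in double-null against Nrf2-null, and mt-Co2 had the greatest log2 difference (1.01 ± 0.24, adjusted p = 0.00988). In double-null, mt-Co2 was at 33.5 CPM in replicate 1 and at 19.4 and 18.6 in the other two. In the comparison with WT all 10 tested genes had both miR-144/451-null libraries above both WT libraries, where 24.2% of all genes did, with log2 differences of 0.37 to 0.67.

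Summed over members, the nuclear genes held 4719 and 5434 CPM in WT, 6028 and 5774 in miR-144/451-null, 4361, 4728 and 4251 in Nrf2-null and 6523, 5994 and 7237 in double-null. The mitochondrial genes held 9348 and 10723, 13659 and 13738, 7903, 9414 and 8564, and 12227, 13235 and 11254 CPM in the same order. Both genomes were higher in every library without the cluster than in any library with it. The log2 difference between group means was 0.22 (nuclear) and 0.45 (mitochondrial) in miR-144/451-null against WT, and 0.56 and 0.51 in double-null against Nrf2-null. The ratio of mitochondrial to nuclear counts was 1.98 and 1.97 in WT, 2.27 and 2.38 in miR-144/451-null, 1.81, 1.99 and 2.02 in Nrf2-null and 1.87, 2.21 and 1.56 in double-null. It was highest in the 2 miR-144/451-null libraries. The double-null libraries ran from 1.56, below every other library, to 2.21, above all WT and Nrf2-null ones.

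**Figure D5:**
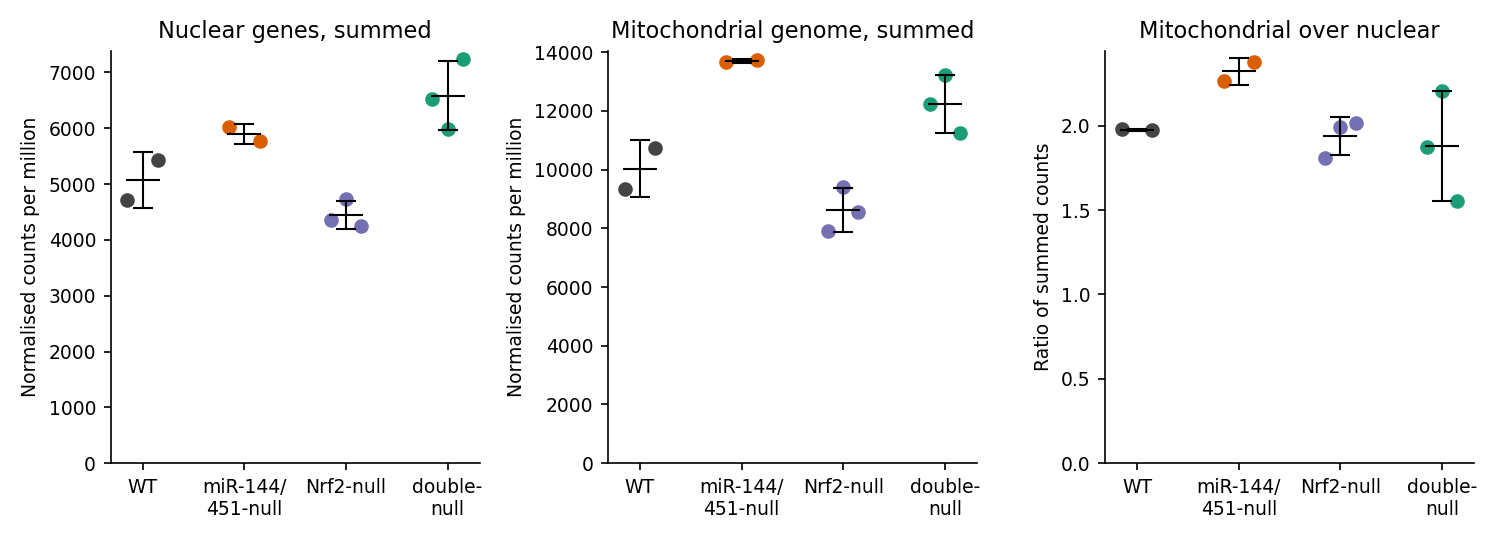
Summed normalised CPM of the 93 nuclear and the 13 mitochondrial members, and the ratio of their summed counts, for each library (points) with the genotype mean and SD (bars). Both sums are higher in the 5 libraries without the cluster than in the 5 with it, while the ratio separates only the miR-144/451-null libraries, at 2.27 and 2.38.

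Loss of Nrf2 alone moved no member past the threshold. In Nrf2-null against WT 0 of 97 were called by edgeR and 0 by DESeq2, where edgeR called 0.191% of all genes, although 91 of the 97 had a log2 difference below 0, with a median of -0.20 over nuclear and -0.37 over mitochondrial members. At an unadjusted p under 0.05 there were 17 members, all lower (17.5%, against 12.1% of all genes in either direction). All 3 Nrf2-null libraries lay below both WT libraries for 43 of 97 members, where 20.1% of all genes did. With a term for sex, which is set within double-null alone, the members' median was -0.01. In double-null against miR-144/451-null 0 of 97 were called by edgeR and 0 by DESeq2, where edgeR called 0.0638% of all genes (0.0496% higher), and 7 had an unadjusted p under 0.05. The median was 0.12 over nuclear members, which became -0.09 when library totals alone were used for scaling, and -0.35 over mitochondrial ones. In double-null against WT, which shares libraries with the comparisons above, 20 of 97 rose and 0 fell, where 8.26% of all genes rose and 8.95% fell, and all 20 were nuclear. Ndufa6 (1.30), Atp5g2 (1.26) and Ndufb5 (1.09) had the greatest of these log2 fold changes. That count was 4 without WT replicate 1, 10 without WT replicate 3, 11 without double-null replicate 1 and 13 without double-null replicate 3.

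Related mitochondrial genes were counted by list, and differences between the lists were not tested. In double-null against Nrf2-null, 10 of 16 genes of the citric acid cycle and pyruvate dehydrogenase rose, with a median log2 fold change of 0.48. Sucla2, a subunit of succinyl-CoA synthetase, was at 15.9, 17.5 and 14.9 CPM against 32.6, 30.7 and 34.6 (1.02 ± 0.14, adjusted p = 0.000484), and Pdhb of pyruvate dehydrogenase (0.89 ± 0.16, adjusted p = 0.00239) also rose. Of 34 tested assembly factors 10 rose and 1 fell, and Atpaf1, a chaperone of the F1 head, had 2.96, 3.30 and 2.98 CPM against 7.72, 6.60 and 9.57 (1.37 ± 0.24, adjusted p = 0.00186). The one that fell, named after its values were seen, was Cox11, a copper chaperone of complex IV (-0.64 ± 0.19, adjusted p = 0.0327), and its call ended without WT replicate 3, Nrf2-null replicate 1 or 3, or double-null replicate 1 or 2 (adjusted p of 0.0504 to 0.0945). Where 14.4% of all genes rose, 2 of 15 genes for electron carriers and coenzyme Q synthesis (13.3%) did, Coq8b (lost without Nrf2-null replicate 1 or 3 or double-null replicate 2, adjusted p of 0.058 to 0.0672) and Coq7 (lost without WT replicate 1, Nrf2-null replicate 1 or 3, or double-null replicate 1 or 3, 0.053 to 0.128). Of 15 membrane, import and chaperone genes 5 rose, among them Vdac2, Tomm20 and Timm23. With Nrf2 present, where 2.4% of all genes rose, 1 gene rose in each of 4 of the lists described here (3.70% to 6.67% of their tested genes), among them Coq8b (1.31 ± 0.33, adjusted p = 0.0453), Tfb2m and Vdac2 (0.71 ± 0.15, adjusted p = 0.0242), and 0 of 34 assembly factors did. Each of these 3 named calls ended without WT replicate 3 or miR-144/451-null replicate 1, and in 3 to 7 of the 10 fits that left out a library.

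Genes that express or regulate the 2 genomes did not move as one. In double-null against Nrf2-null, where 14.4% of all genes tested rose and 12.9% fell, 2 lists were counted. Of 27 tested genes for mitochondrial DNA replication, transcription and RNA handling 7 rose and 1 fell. Tfb1m, which methylates mitochondrial ribosomal RNA, was the one that fell and is named after its values were seen, from 8.47, 9.69 and 9.55 CPM to 3.27, 2.81 and 5.40 (-1.27 ± 0.27, adjusted p = 0.00646). Tfb2m, the factor that opens mitochondrial promoters for the polymerase, was at 20.01 and 15.3 CPM in WT, 51.7 and 32.6 in miR-144/451-null, 19.6, 18.3 and 27.1 in Nrf2-null and 52.0, 58.4 and 46.9 in double-null. Its libraries split by the cluster without overlap, with log2 fold changes of 1.25 (adjusted p = 0.0225) and 1.27 (adjusted p = 0.0015). The first call ended without WT replicate 1 or 3 or miR-144/451-null replicate 1 (0.0695 to 0.189). Of the 7 tested nuclear regulators 0 rose and 2 fell: Nrf1, from 129.5 ± 8.72 (SD, n = 3) to 87.4 ± 15.4 CPM (-0.57 ± 0.14, SE, adjusted p = 0.0142), and Pprc1, a coactivator of the PGC-1 family, from 64.0 ± 1.08 to 45.5 ± 3.73 (-0.49 ± 0.16, SE, adjusted p = 0.0387). The call of Nrf1 ended without double-null replicate 3 (0.0539) and that of Pprc1 without any single library of these 2 groups (replicates 1, 2 and 3 of each, 0.0679 to 0.119). Nrf1 was also at 136 ± 16.7 CPM in WT and 88.9 ± 7.04 in miR-144/451-null, a log2 difference of -0.61 ± 0.18 (SE, adjusted p = 0.077) that did not pass. Gabpa had log2 differences of 0.52 (adjusted p = 0.0804) and 0.30 (adjusted p = 0.0956), while Ppargc1a averaged under 1 CPM in every genotype and was not tested. The members that hold the Nrf1 motif were called higher in double-null against Nrf2-null in 11 of 19 cases, those with the ETS motif in 11 of 18 and those with the antioxidant element in 8 of 11. Those with the Yy1 motif were called in 5 of 11 cases and those with the Esrra motif in 2 of 2. Of all members with a known promoter, 43 of 73 tested were called. Among the windows shown above, Atp5g2, Ndufa6, Sdha, Sdhb and Cox6b1 rose, and Uqcrc1 and Ndufs3 did not.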

How the data were processed

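The authors deposited raw counts per Ensembl gene for 10 libraries and, per library, FPKM values, and those FPKM values equal the counts scaled to a gene length and to the library's sum. Tools named without a role, per the submitters' processing notes, are TopHat2, HISAT2 2.1.0, Bowtie2 2.2.3 and CASAVA, and the build named is mm9. Not given in the sources used here are how reads were counted, with which annotation, and how strand and multi-reads were handled. Counts were used for every test and FPKM only for levels between genes. Symbols came from GENCODE M21 (99.6% of 53465 identifiers matched), which also gave the 3′ UTRs and the shared 31-base words, and sequences from RefSeq on GRCm38.p6. No coordinate was converted.

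All 10 libraries entered 1 fit in R 4.3.3 with edgeR 4.0.16 (TMM, filterByExpr, robust quasi-likelihood test, two-sided, 6 residual degrees of freedom). SE values are the log2 fold change over the square root of F. DESeq2 1.42.0 was an alternative, with other scalings, filters, a term for sex, a replicate block and each library left out. The fit was tested on simulated counts for the 14110 genes with 200 changed. Floors of 3 counts cover counting error only.

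The members, gene lists and tests were chosen with earlier results of these data known. Named nuclear members are the 3 per complex with the smallest p among those called in each comparison, the 2 per complex with the highest FPKM, the 5 with the smallest interaction p, paralog sets, X-linked members and the Sdh genes. All 13 mitochondrial genes are named. Of the other lists, up to 3 called genes each are named. Some genes that this rule names are not reported here. Replicates differed by more than sampling noise (chi-square over its degrees of freedom between 15.5 and 27.2). The marker lists not given in the results were T cell (1 of 8 lower in double-null against Nrf2-null), NK cell (2 of 7 lower) and megakaryocyte (1 higher and 1 lower of 7).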

Additional observations from a re-analysis of the deposited data

How the results depend on the processing

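The count of members called in miR-144/451-null against WT (7) was 4 with DESeq2 size factors, 12 with library totals alone, 11 without a filter (10 higher and Uqcrc1 lower), 2 with only the groups compared, 0 with a term for sex and 12 with DESeq2, and 0 to 7 with each library left out (0 without WT replicate 3 or miR-144/451-null replicate 1, 1 without WT replicate 1, 2 without miR-144/451-null replicate 3). The replicate numbers share only a number: correlations of same-numbered libraries ran from -0.13 to 0.33. With the replicate block the counts were 3 in miR-144/451-null against WT, 51 in double-null against Nrf2-null (58 without it), 11 in double-null against WT and 0 elsewhere. Double-null against Nrf2-null had 42 to 57 calls with each library left out, 1 of them lower (Ndufs3) without double-null replicate 1. Double-null against miR-144/451-null gave 1 without a filter. Double-null against WT (20) gave 11 with library totals alone, 9 with a term for sex and 4 to 19 with each library left out. None of the 42 named calls reversed, and 16 were lost with a term for sex.

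Library totals alone moved the median of all genes from 0.0238 to 0.147 in miR-144/451-null against WT and from -0.0236 to -0.238 in double-null against miR-144/451-null. They turned the summed nuclear level in the latter from 0.15 to -0.058, and gave 0.34 (nuclear) and 0.57 (mitochondrial) in miR-144/451-null against WT and -0.38 (mitochondrial) in double-null against miR-144/451-null. Medians over members in place of sums gave nuclear differences of 0.41 and 0.79 in the 2 comparisons of cluster loss, -0.37 for the mitochondrial level in double-null against miR-144/451-null, and a ratio difference of -0.29 in double-null against Nrf2-null. Without the most abundant member, the mitochondrial difference was 0.57 in miR-144/451-null against WT, -0.38 in Nrf2-null against WT and -0.37 in double-null against miR-144/451-null, and the ratio differences in the last 2 were -0.19 and -0.50. The cause of these shifts was not tested. With 2 WT and 2 miR-144/451-null libraries, simulated 2-fold changes were recovered in 21% of genes. That simulation changed 200 genes drawn from all those tested, where 653 were called in the data, so 21% is not a rate for the members. Of the 7 members called there, 2 had a change of 2-fold or more.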

Other observations

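Ndufb1-ps, left out by its annotation as a non-coding RNA, had 110 and 110 counts in WT, 315 and 393 in miR-144/451-null, 95, 122 and 81 in Nrf2-null and 270, 279 and 350 in double-null, so its raw counts split by the cluster without overlap. The nuclear copies of mitochondrial DNA on chromosome 1 carried few counts beside the most counted mitochondrial genes, but not beside mt-Atp6, mt-Co2 and mt-Co3, whose sequence they share. Gm10925, which averaged the most among them, had 221 to 477 counts in 9 libraries and 717 in double-null replicate 3. It averaged 354 counts against 88.3 for mt-Atp6. Gm28661 had 89 to 236 in all 10 and averaged 157 against 256 for mt-Co2. Gm28437 averaged 109 against 130 for mt-Co3.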
